A study of Mus musculus with 6 samples.

Results

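The Wnt pathway carries a secreted signal to the nucleus. A Wnt ligand binds a Frizzled receptor and an LRP coreceptor, which stops a cytoplasmic destruction complex from degrading β-catenin, and β-catenin then joins TCF/LEF factors on DNA. In bone the pathway is known to favour osteoblast formation, while Sox9, the master transcription factor of cartilage, is known to oppose β-catenin in skeletal progenitors. A set of 10 genes was examined here: Sox9 and the Wnt pathway genes Axin2, Apcdd1, Lgr4, Lrp5, Lrp6, Wnt9a, Ctnnb1, Tcf7l2 and Rnf43. They were found by gene name among the 14003 genes of the deposited table, and 9 of the 10 were present. Axin2, a feedback scaffold of the destruction complex, was not analysed here.

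The labels name wild-type MC3T3-E1 cells, mouse preosteoblasts that grow as a line and came from calvaria. The control group held 3 samples left untreated, with no vehicle named, and the other group held 3 samples given 200 µM sulfasalazine, an anti-inflammatory drug, for 24 h. Total RNA was sequenced, and levels are given in FPKM, fragments scaled by gene length and by library size, so genes can be compared per length. Whether the replicates came from separate cultures is not stated in the labels. A p-value here therefore measures only how far these samples spread, which may be technical. The labelled cell type was checked first. Of 15 osteoblast markers 10 were in the table and 6 of these had a mean below 1 FPKM. Those 6 included Col1a1, the bone collagen gene, at 0.0561 to 0.655 FPKM, and Sp7, the osterix gene, listed at 0 in 5 of 6 libraries. The summed level of the osteoblast list, mostly Spp1 (osteopontin), was 1554 to 2145 FPKM in controls and 892 to 1113 FPKM with sulfasalazine. The summed level of the epithelial list, mostly keratins, was 1535 to 1725 and 1971 to 2207 FPKM, but its genes went both ways: Krt8 and Krt18 were called higher, and Krt7 and Krt19 lower. Of 7 chondrocyte markers 3 were in the table, and Sox9 was the only one of them tested. The summed macrophage list, nearly all Cd68, ran from 32.0 to 56.3 FPKM in controls and 18.2 to 28.8 FPKM with sulfasalazine, the fibroblast list from 5.21 to 12.7 and 3.21 to 9.56 FPKM, and the endothelial list was at most 0.214 FPKM in any library. The part of these marker shifts in the results was not tested, and in bulk RNA fewer cells of a type and less RNA per cell cannot be told apart.

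Recovered reads on genes ranged from 15980935 to 21579133 per library. Samples separated by group along the leading principal component (88.6% of variance). Control replicate 3 had the fewest reads and scored -42.6 on that component against -65.3 and -63.2 for the other controls, and sulfasalazine libraries scored 54.1 to 59.2. Groups were compared with limma on log2(FPKM + 1), which understates fold changes of low genes, and a gene was called at a Benjamini-Hochberg adjusted p under 0.05 over all 10338 genes tested. The test called 6878 genes, or 66.5% of those tested, with 37.2% of the tested genes higher and 29.3% lower with sulfasalazine. That excess of higher genes depended on the scaling, with 3507 higher and 3473 lower under median-of-ratios scaling and 3507 and 3549 under quantile normalization. All 9 genes were tested and had at least 1 FPKM in each of the 6 libraries. Of the 9, 5 were higher, 1 was lower and 3 were not called, so the share called, 66.7%, was near that of all genes. Each gene of the set called in either direction also had groups that did not overlap, as did 71.4% of all genes tested. The median log2 fold change was 0.74 over the 9 genes and 0.08 over all genes tested.

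**Figure D1:**
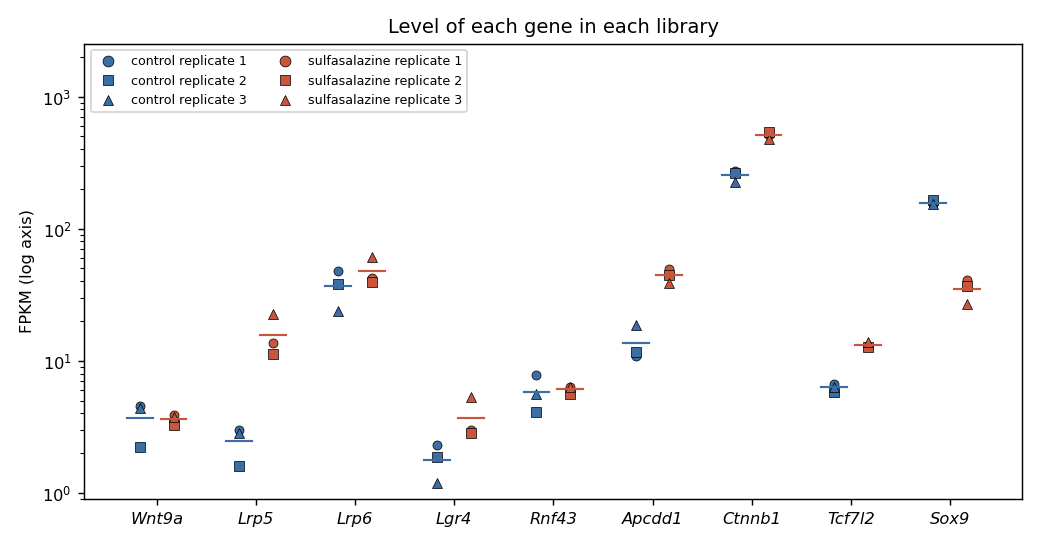
FPKM (log axis) of the 9 genes in each of the 6 libraries; blue marks are control and red marks sulfasalazine libraries, the shape gives the replicate and the bar the group mean. The control values of Sox9 span 153 to 165 FPKM and its sulfasalazine values 27.02 to 40.8 FPKM, while Lrp5, Lgr4, Apcdd1, Ctnnb1 and Tcf7l2 were higher in all sulfasalazine libraries.

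The 9 genes spanned a wide range of levels. In controls Ctnnb1 was the most abundant at 254 ± 26.1 FPKM (SD, n = 3), followed by Sox9, Lrp6 and Apcdd1, and the ranges of these 4 did not overlap. Below them came Tcf7l2, Rnf43, Wnt9a, Lrp5 and Lgr4, from 6.29 down to 1.78 FPKM, and each of these overlapped its neighbour in the order. With sulfasalazine Ctnnb1 still led at 509 ± 31.9 FPKM. Lrp6 and Apcdd1 then stood above Sox9, at 47.7 and 44.4 against 34.8 FPKM, and both overlapped Sox9 in range. Lrp5 moved from the eighth place to the fifth, level in range with Tcf7l2.

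Upstream sequences are shown for Ctnnb1 and Tcf7l2, because they encode the 2 proteins that meet on DNA at the end of the pathway and both were higher with sulfasalazine. They are the 250 bases before a RefSeq transcript start (GRCm38.p6, plus strand, 5′ to 3′). The windows are chr9:120933150-120933399 for Ctnnb1, chr19:55741560-55741809 for the outer start of Tcf7l2 and chr19:55895071-55895320 for an internal start of Tcf7l2. None of the 3 overlaps an annotated exon of GENCODE M21. The Ctnnb1 window also lies inside the span of its gene. A second Ctnnb1 window, chr9:120933328-120933577, has 178 bases in annotated exons and is not shown. Capitals mark TCF/LEF core words on either strand, which are CTTTGAA and the variants that end otherwise, namely CTTTGAT, then also CTTTGTA, and lastly CTTTGTT. They also mark SOX core words on either strand, which are ACAATG, the variant ACAATA, and the variant ACAAAG.
Ctnnb1: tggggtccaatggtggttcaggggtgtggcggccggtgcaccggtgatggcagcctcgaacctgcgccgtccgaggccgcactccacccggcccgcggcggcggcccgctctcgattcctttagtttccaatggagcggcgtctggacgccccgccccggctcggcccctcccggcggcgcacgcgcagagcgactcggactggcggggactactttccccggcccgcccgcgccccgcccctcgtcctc
Tcf7l2 outer start: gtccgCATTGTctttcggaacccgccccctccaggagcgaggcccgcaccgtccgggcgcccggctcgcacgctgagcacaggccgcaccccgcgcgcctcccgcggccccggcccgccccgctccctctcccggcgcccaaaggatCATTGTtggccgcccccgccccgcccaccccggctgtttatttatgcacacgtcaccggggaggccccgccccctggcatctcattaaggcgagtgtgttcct
Tcf7l2 internal start: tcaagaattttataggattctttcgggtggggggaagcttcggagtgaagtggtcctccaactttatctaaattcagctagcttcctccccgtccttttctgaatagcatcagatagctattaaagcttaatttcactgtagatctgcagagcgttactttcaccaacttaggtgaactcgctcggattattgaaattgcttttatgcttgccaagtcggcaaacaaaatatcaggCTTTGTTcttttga
The Ctnnb1 window held neither kind of word. The outer Tcf7l2 window held ACAATG on the minus strand at 2 places, -245 to -240 and -103 to -98 counted from the transcript start. The internal window held CTTTGTT at -14 to -8, and the minus-strand SOX word ACAAAG overlaps it at -14 to -9. Of 32851 mouse promoter windows of this length 14.8% held a TCF/LEF word and 30.5% a SOX word, so a match is common and says nothing of binding. GC content was 74.8% for Ctnnb1, 72.8% and 40.8% for the Tcf7l2 windows, and 52.4% at the median of all windows.

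Wnt9a encodes a Wnt ligand known from joint formation (chromosome 11, 59306928 to 59333552 on GRCm38, as are all gene positions here). Its level was 4.55, 2.23 and 4.36 FPKM in control replicates 1, 2 and 3 and 3.89, 3.25 and 3.74 FPKM with sulfasalazine. The groups overlapped, and control replicate 2 was the lowest of the 6 libraries. The log2 fold change was 0.01 (SE 0.23, 95% interval -0.51 to 0.53, limma adjusted p = 0.966), so changes of up to about that interval were not detectable.

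The other 3 ligands that passed the filter on low values were lower, and of these Wnt10a and Wnt7b were far more abundant than Wnt9a. Of 19 Wnt ligand genes 11 were in the table and 4 were tested, with 3 lower, 0 higher and Wnt9a not called. The share called was 75% against 66.5% of all genes tested. With no filter on low values limma called 1 of the 11 higher and 3 lower. Wnt10a, a β-catenin-activating ligand, read 120, 138 and 174 FPKM in controls and 35.1, 35.6 and 45.2 FPKM with sulfasalazine (limma, log2 fold change -1.86 with SE 0.16 and adjusted p = 3.7e-05). Wnt7b, a ligand known in bone formation, read 127, 140 and 233 FPKM in controls and 114, 112 and 94.7 FPKM with sulfasalazine. Its groups did not overlap, yet the call was thin (log2 fold change -0.59, limma adjusted p = 0.0416). It was lost without control replicate 2 (adjusted p = 0.0542) and without sulfasalazine replicate 1, 2 or 3 (0.069, 0.0725 and 0.123), and also with a replicate block (0.0595), with no filter (0.0681) and with no intensity trend (0.053). Wnt7a, its close relative, fell from 13.0, 14.3 and 5.02 FPKM to 0.649, 0.351 and 0.0809 FPKM (log2 fold change -3.02 with SE 0.35). Wnt7a was below 1 FPKM in every sulfasalazine library and so passed the filter through its controls. Together Wnt7b and Wnt10a made up 93.0% to 97.1% of the summed FPKM of the 11 ligand genes in all 6 libraries. That sum was 266, 296 and 419 FPKM in controls and 154, 152 and 145 FPKM with sulfasalazine (exact permutation test, two-sided p = 0.1, the smallest that 3 against 3 can give).

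Lrp5 and Lrp6 encode the paired coreceptors that take up Wnt beside a Frizzled receptor, and only the first was called. Lrp5 (chromosome 19, 3584828 to 3686564) read 2.99, 1.60 and 2.83 FPKM in controls and 13.7, 11.2 and 22.5 FPKM with sulfasalazine. All sulfasalazine libraries lay far above the controls, and sulfasalazine replicate 3 was the highest. The group mean was 6.37-fold higher, with a log2 fold change of 2.24 (SE 0.28, 95% interval 1.60 to 2.88, limma adjusted p = 0.000204). Lrp6 (chromosome 6, 134446476 to 134566965) read 47.9, 38.2 and 23.7 FPKM in controls and 42.5, 39.2 and 61.4 FPKM with sulfasalazine. The groups overlapped, with replicate 3 the lowest control and the highest sulfasalazine library. The log2 fold change was 0.40 (95% interval -0.21 to 1.02, limma adjusted p = 0.211), and it was -0.07 without replicate 3 of both groups. Lrp6 was the more abundant of the pair in every library. Lrp5 supplied 5.88%, 4.03% and 10.7% of the summed Lrp5 and Lrp6 FPKM in controls and 24.4%, 22.2% and 26.8% with sulfasalazine (exact permutation test, two-sided p = 0.1, the smallest possible).

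Frizzled genes, which encode the receptors that bind Wnt directly, moved mostly the same way as Lrp5. Of the 16 listed receptor and coreceptor genes 12 were in the table and 11 were tested, with 8 higher, 0 lower and Fzd6, Lrp6 and Ryk not called (72.7% called against 66.5% of all genes). One of the 8, Fzd8, averaged 0.392 ± 0.171 FPKM (control) and 1.34 ± 0.188 FPKM (sulfasalazine), and passed the filter through the latter. Fzd4 was among the 8, but its call was lost without control replicate 1 or 2 (limma adjusted p = 0.0767 and 0.1) and without sulfasalazine replicate 1 or 3 (0.0522 and 0.0597), and under quantile normalization its log2 fold change was 0.24 (0.23). The list median was 0.88 against 0.08 over all genes tested. Fzd2 had the largest change of the list, from 2.73, 2.04 and 5.60 FPKM to 24.9, 25.3 and 26.7 FPKM (limma, log2 fold change 2.66 with SE 0.27 and adjusted p = 7.5e-05). Fzd5 read 3.36, 3.73 and 2.94 FPKM in controls and 13.3, 13.6 and 20.7 FPKM with sulfasalazine. Other genes cover 17.8% of its exonic bases, with the largest overlap antisense. Ptk7, a pseudokinase coreceptor of the planar polarity branch, rose from 21.6 ± 6.84 to 50.2 ± 1.45 FPKM. The summed FPKM of the 8 Frizzled genes in the table was 21.1, 18.6 and 23.9 in controls and 63.7, 61.7 and 73.4 with sulfasalazine. The sums did not overlap (exact permutation test, two-sided p = 0.1, the smallest possible), whereas the ligand sum ran the other way. Fzd6 read 4.65 ± 1.04 and 3.82 ± 0.430 FPKM and its groups overlapped, but it passed as lower without control replicate 3 (limma adjusted p = 0.0447).

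**Figure D2:**
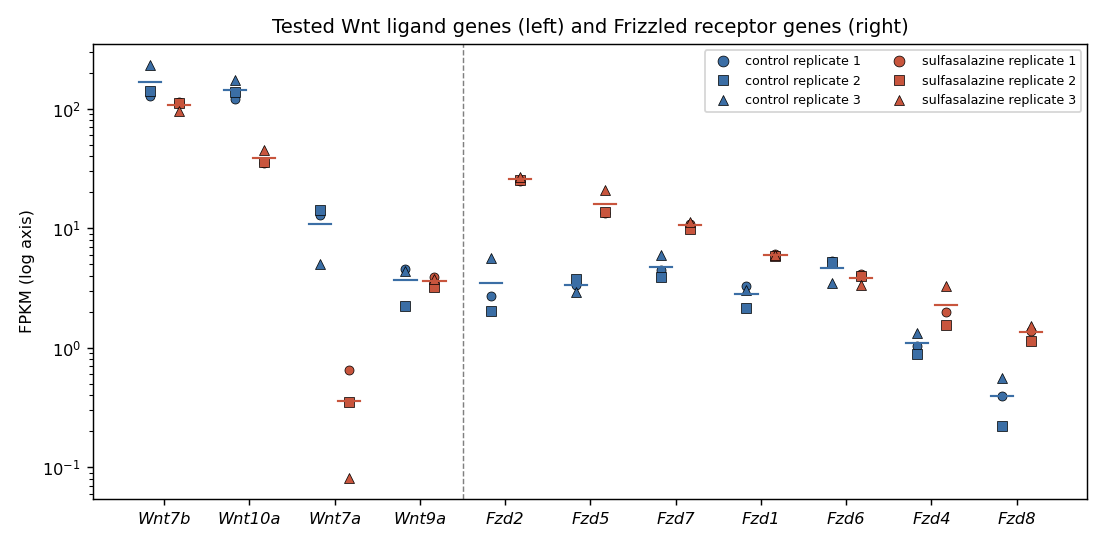
FPKM (log axis) of the 4 tested Wnt ligand genes and the 7 tested Frizzled genes in each of the 6 libraries; blue marks are control, red marks sulfasalazine, shapes give the replicate and bars the group means. Wnt10a and Wnt7a lay lower in every sulfasalazine library, Wnt9a and Fzd6 overlapped, and Fzd2 lay at 24.9 to 26.7 FPKM against 2.04 to 5.60 FPKM in controls.

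Lgr4 and Rnf43 act against each other at the receptor. Rnf43 encodes a ubiquitin ligase that removes Frizzled from the cell surface, and Lgr4 encodes a receptor for R-spondins, which block that ligase. Lgr4 (chromosome 2, 109917647 to 110014257) read 2.29, 1.86 and 1.196 FPKM in controls and 2.97, 2.84 and 5.34 FPKM with sulfasalazine. The groups did not overlap, but sulfasalazine replicate 3 stood well above the other libraries and control replicate 3 was the lowest. It was the least abundant of the 9 genes in controls, with 56 to 301 recovered reads a library. The log2 fold change was 0.74 (SE 0.24, 95% interval 0.19 to 1.30, limma adjusted p = 0.0248). The call was lost without control replicate 2 (adjusted p = 0.0602), control replicate 3 (0.0566) or sulfasalazine replicate 3 (0.0621), and the value was 0.35 without replicate 3 of both groups (adjusted p = 0.0545).

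Rnf43 (chromosome 11, 87662722 to 87735539) read 7.87, 4.12 and 5.56 FPKM in controls and 6.29, 5.59 and 6.31 FPKM with sulfasalazine. All 3 sulfasalazine values lay inside the range of the controls. The log2 fold change was 0.08 (SE 0.21, 95% interval -0.41 to 0.57, limma adjusted p = 0.756). Of the 9 listed R-spondin, LGR and ubiquitin ligase genes 6 were in the table and 5 were tested, with 2 higher and 0 lower (40% called against 66.5% of all genes). The second was Lgr6, another R-spondin receptor, from 0.489 ± 0.219 to 1.14 ± 0.0971 FPKM (limma adjusted p = 0.012), which passed the filter through the sulfasalazine group. Its call was lost under quantile normalization (log2 fold change 0.10, adjusted p = 0.636). Znrf3, the paralog of Rnf43, was not called at 9.52 ± 2.02 and 7.03 ± 0.542 FPKM, and it passed as lower without control replicate 3 (limma adjusted p = 0.00678), under median-of-ratios scaling (0.0441) and under quantile normalization (0.0178). The R-spondin gene Rspo3 read 8.91 ± 3.47 and 10.4 ± 2.34 FPKM and was not called.

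Apcdd1 encodes a membrane protein that binds Wnt and LRP5 and inhibits signalling, and it is also known as a Wnt target. It (chromosome 18, 62922231 to 62961179) read 10.9, 11.6 and 18.7 FPKM in controls and 49.7, 45.0 and 38.6 FPKM with sulfasalazine. The groups were well apart, and replicate 3 was the highest control and the lowest sulfasalazine library. The mean was 3.24-fold higher, with a log2 fold change of 1.66 (SE 0.21, 95% interval 1.17 to 2.14, limma adjusted p = 0.000227) and of 1.98 without replicate 3 of both groups. Extracellular inhibitors as a list had 18 genes, of which 8 were in the table and 4 were tested. All 4 were higher, as were 37.2% of all genes tested, and the list median was 1.34. They were Apcdd1, Tpbg, Kremen1 and Notum. With no filter on low values limma also called 1 gene of the list lower. Tpbg, encoding a membrane inhibitor of LRP6 uptake, rose from 4.62 ± 0.792 to 13.8 ± 1.92 FPKM. Other genes cover 23.5% of its exonic bases, with the largest overlap antisense. Kremen1, a receptor of the DKK inhibitors, rose from 7.33 ± 2.21 to 18.9 ± 0.941 FPKM. Notum, a secreted enzyme that strips the lipid from Wnt, rose from 13.5 ± 5.89 to 30.0 ± 0.947 FPKM. Other genes cover 38.1% of its exonic bases, with the largest overlap in the antisense gene Notumos. Without strand information reads of such overlapping genes cannot be told apart.

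Ctnnb1 encodes β-catenin, the protein that carries the signal into the nucleus and that also anchors cadherins at cell junctions. It (chromosome 9, 120929216 to 120960507) read 274, 265 and 225 FPKM in controls and 514, 538 and 475 FPKM with sulfasalazine. The groups did not overlap and replicate 3 was the lowest library of each. The mean was 2.00-fold higher, with a log2 fold change of 1.00 (SE 0.12, 95% interval 0.73 to 1.28, limma adjusted p = 0.00016). Of the exonic bases of Ctnnb1 15.1% lie in other genes, with the largest overlap in Ulk4 on the opposite strand. Ulk4 itself read at most 0.790 FPKM in any library. Transcript levels do not give the amount of stabilised β-catenin protein, which was not measured.

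Tcf7l2 encodes a TCF factor that binds DNA and recruits β-catenin. It (chromosome 19, 55741820 to 55933654) read 6.72, 5.84 and 6.31 FPKM in controls and 12.9, 12.8 and 13.8 FPKM with sulfasalazine. The spread within each group was small and the groups were well apart. The log2 fold change was 0.96 (SE 0.14, 95% interval 0.64 to 1.28, limma adjusted p = 0.000451). The table gives 1 value per gene, so the outer and internal starts printed above cannot be separated.

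Nuclear effectors as a list were mostly higher. Of 17 listed genes 14 were in the table and 13 were tested, with 11 higher, 1 lower and 1 not called (92.3% called against 66.5% of all genes, median 1.02). The list held both coactivators and repressors among its higher genes. Bcl9, a coactivator that bridges β-catenin to Pygopus, rose from 3.59, 4.27 and 5.74 FPKM to 21.3, 19.4 and 19.8 FPKM (log2 fold change 1.95 with SE 0.18), and its paralog Bcl9l from 27.03 ± 6.484 to 74.5 ± 6.46 FPKM. Tle2, a Groucho corepressor of TCF factors, rose from 1.29, 1.39 and 2.197 FPKM to 16.3, 17.5 and 23.5 FPKM (limma, log2 fold change 2.93 with SE 0.20 and adjusted p = 1.4e-05). Ctnnbip1, an inhibitor that keeps β-catenin from TCF, rose from 2.26 ± 0.605 to 10.2 ± 0.337 FPKM. Other genes cover 25.8% of its exonic bases, with the largest overlap antisense. Tle3 was the lower gene, at 172 ± 8.04 and 112 ± 6.72 FPKM, and Tcf7, another TCF factor, was not called at 4.81 ± 1.74 and 3.09 ± 0.113 FPKM, although it passed as lower without control replicate 1 (limma adjusted p = 0.0397), under median-of-ratios scaling (0.048) and under quantile normalization (0.0145).

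Dishevelled and destruction complex genes, which lie between receptor and β-catenin, moved in both directions. Of 17 listed genes 16 were in the table and 15 were tested, with 5 higher and 7 lower (median -0.47). The share called was 80% against 66.5% of all genes tested. The lower genes included Dvl2, a Dishevelled gene that relays the receptor signal, from 91.0, 82.6 and 81.2 FPKM to 40.5, 42.6 and 39.0 FPKM (log2 fold change -1.04 with SE 0.10), and other genes cover 19.7% of its exonic bases. Csnk1a1, the kinase that primes β-catenin for degradation, fell from 178 ± 34.2 to 95.7 ± 12.4 FPKM. Btrc, which encodes the ubiquitin ligase adaptor that recognises phosphorylated β-catenin, rose from 11.97 ± 2.128 to 28.7 ± 1.36 FPKM. Amer1, a membrane scaffold of the complex, averaged 0.132 ± 0.0498 FPKM (control) and 1.51 ± 0.132 FPKM (sulfasalazine), and passed the filter through the latter. Control replicate 3 bore on this list: without it 10 genes were lower, and the 5 higher genes stayed 5 in number.

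**Figure D3:**
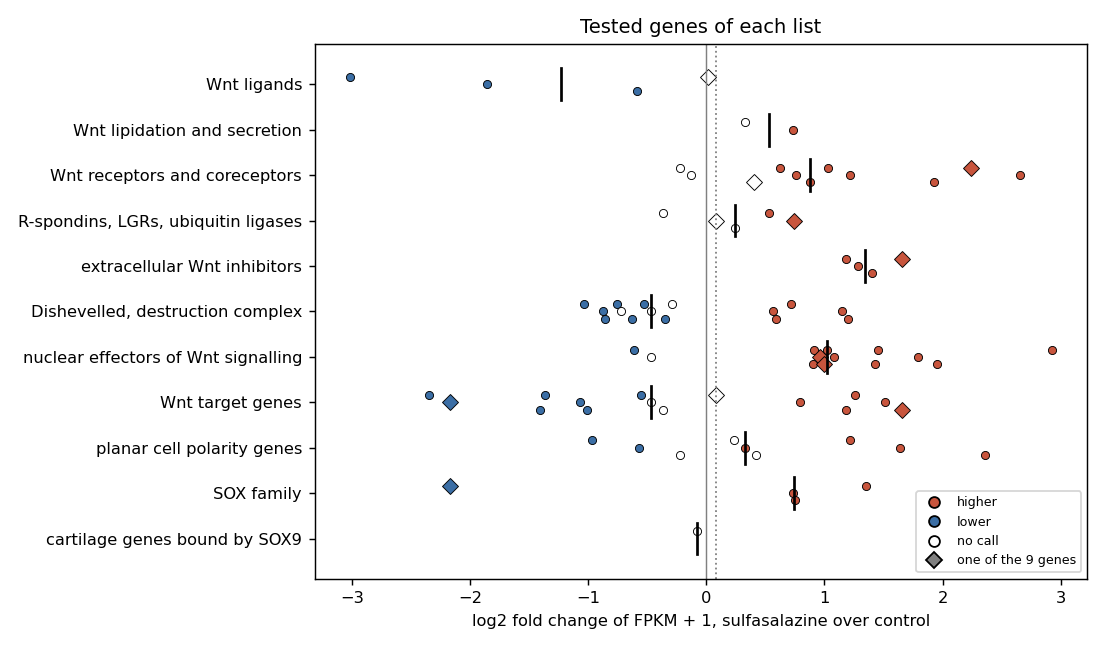
Log2 fold change (sulfasalazine over control, FPKM + 1) of every tested gene of 11 lists; red was called higher, blue lower and white neither, diamonds are genes of the set of 9, black bars are list medians and the dotted line is the median of all tested genes. All 4 extracellular inhibitors lie on the higher side, while the destruction complex and target lists lie on both sides.

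Wnt target genes did not move as a block. Of 29 listed symbols 19 were in the table and 15 were tested, with 5 higher, 7 lower and 3 not called (median -0.47). The share called was 80% against 66.5% of all genes tested. Among the 7 lower genes, Nrcam averaged 1.46 ± 0.295 FPKM (control) and 0.217 ± 0.0206 FPKM (sulfasalazine), and passed the filter through the former. Sox9 and Apcdd1, both of this list, went in opposite directions. Myc, a growth-control transcription factor, fell from 624, 686 and 663 FPKM to 130, 133 and 121 FPKM (limma, log2 fold change -2.35 with SE 0.10 and adjusted p = 3.4e-06). Ccn5, a matricellular protein, was listed at 0, 0.0358 and 0.233 FPKM in controls and read 2.45, 1.83 and 2.01 FPKM with sulfasalazine, and passed the filter through the latter. The 3 genes not called were Rnf43, Znrf3 and Tcf7. The feedback target genes Nkd2 and Lgr5 were below the filter, and Lgr5 stood at 0.104 to 0.338 FPKM over the 6 libraries.

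Sox9 was the only gene of the 9 that was called lower. Sox9 (chromosome 11, 112782224 to 112787760) read 154, 165 and 153 FPKM in controls and 40.8, 36.7 and 27.02 FPKM with sulfasalazine. The controls were tight, every sulfasalazine library lay far below them, and sulfasalazine replicate 3 was the lowest. The mean was 4.52-fold lower, with a log2 fold change of -2.17 (SE 0.15, 95% interval -2.52 to -1.81, limma adjusted p = 1.5e-05). At 2203 to 14577 recovered reads a library, counting error was small beside the spread between replicates.

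The other SOX genes that were tested moved the opposite way. Of 19 listed SOX genes 8 were in the table and 4 were tested. Sox4, Sox13 and Sox21 were all higher, as were 37.2% of all genes tested. Sox4, a SoxC factor of progenitor cells, rose from 36.2, 31.5 and 40.6 FPKM to 96.5, 87.6 and 94.7 FPKM (limma, log2 fold change 1.35 with SE 0.12 and adjusted p = 4.3e-05). However, other genes cover 54.6% of its exonic bases, with the largest overlap antisense. Sox13, a SoxD factor, rose from 5.68 ± 0.725 to 10.2 ± 0.624 FPKM and Sox21 from 1.55 ± 0.346 to 3.22 ± 0.172 FPKM. Other genes cover 18.8% of the exonic bases of Sox21, with the largest overlap antisense. Sox6, which acts beside Sox9 in cartilage, had at most 6 recovered reads in any library.

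Cartilage genes that SOX9 is known to bind were mostly at low levels. The list named 18 genes and the table held 7, of which 6 had a mean below 1 FPKM and 1 was tested. Col2a1, the main cartilage collagen gene, stood at 0.167 ± 0.0660 and 0.134 ± 0.0316 FPKM, on 3 to 9 recovered reads a library. Col11a2 was the tested gene, and it read 5.10, 4.26 and 2.23 FPKM (control) against 4.05, 3.76 and 2.68 FPKM (sulfasalazine), and it was not called (log2 fold change -0.08, 95% interval -0.67 to 0.51). Below the filter, 2 genes had groups that did not overlap, and they went opposite ways. Matn3, a cartilage matrix gene, read 0.232, 0.171 and 0.223 FPKM in controls and was listed at 0 in all 3 sulfasalazine libraries, on at most 14 recovered reads. Comp, another cartilage matrix gene, read 0.0499, 0.281 and 0.244 FPKM (control) and 0.857, 1.17 and 1.47 FPKM (sulfasalazine), on 1 to 29 recovered reads. With no filter on low values limma called 1 gene of the list higher and 1 lower. Col2a1 was below the filter and its groups overlapped, at 0.165, 0.233 and 0.101 FPKM (control) and 0.0997, 0.162 and 0.140 FPKM (sulfasalazine). Whether its change matched that of Sox9 was not tested.

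Planar polarity genes, the β-catenin-independent branch, had 9 tested of 15 listed, with 4 higher and 2 lower. The share called, 66.7%, was that of all genes tested (66.5%). Celsr2, an atypical cadherin, rose from 2.71, 1.94 and 2.87 FPKM to 15.5, 14.7 and 20.9 FPKM, and Vangl1 from 7.80 ± 1.32 to 26.3 ± 2.55 FPKM. Daam1, a formin, fell from 16.9 ± 4.29 to 8.07 ± 1.71 FPKM. Of the ligand export genes, Porcn, which adds the lipid to Wnt, stood at 10.7 ± 3.40 and 18.1 ± 4.17 FPKM with overlapping groups. Its call (limma adjusted p = 0.0337) was lost without control replicate 1 or 2 or sulfasalazine replicate 1 or 2 (0.104, 0.081, 0.112 and 0.11). It was also lost with a replicate block (0.0639), under median-of-ratios scaling (0.0659), under quantile normalization (0.107) and with no filter (0.0572). Wls, the Wnt carrier, was not called.

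**Figure D4:**
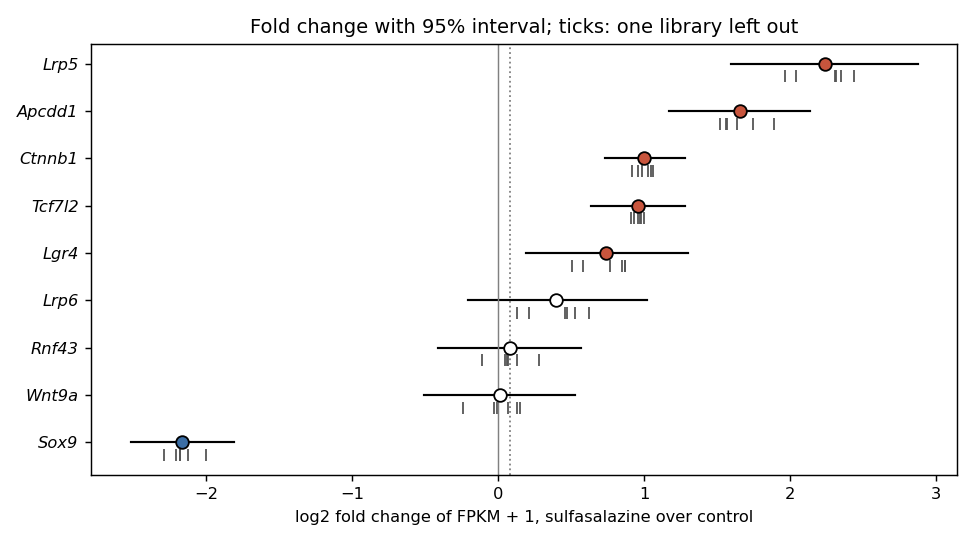
Log2 fold change (sulfasalazine over control, FPKM + 1) of the 9 genes with the 95% interval of limma; red was called higher, blue lower and white neither, small ticks are the values with each library left out and the dotted line is the median of all tested genes. Sox9 at -2.17 lies apart from the other 8, and the intervals of Lrp6, Rnf43 and Wnt9a include 0.

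Over all Wnt lists 92 of 129 listed genes were in the table and 71 were tested, with 37 higher and 20 lower and a median log2 fold change of 0.53. The share called was 80.3% against 66.5% of all genes tested, and 6 of the 71 had passed the filter through 1 group alone. In the authors' deposited table the log2 fold changes were -2.27 for Sox9, 2.57 for Lrp5, 1.60 for Apcdd1, 0.97 for Tcf7l2, 0.95 for Lgr4 and 0.90 for Ctnnb1. The authors' deposited table marks 3 of the 9 as changed, Lrp5, Apcdd1 and Sox9, under a rule that also asks for an absolute log2 fold change above 1 and that marked 34.9% of its genes.

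The genes whose pattern over the 6 libraries was most like that of Sox9 on the log2(FPKM + 1) scale were Nol9, Srp68 and Farsb, with Pearson r of 0.9989, 0.9984 and 0.9983. The 6 points fall into the 2 treatment groups, so these values mostly describe a shared difference between the groups. Farsb, a subunit gene of an aminoacyl-tRNA synthetase, read 135, 153 and 139 FPKM in controls and 60.0, 54.4 and 47.6 FPKM with sulfasalazine.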

How the data were processed

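RNA of 6 mouse cell samples was sequenced by the submitters, and groups and replicate numbers came from the sample titles. Per the submitters' processing notes the tools were HTSeq 0.13.5, HISAT2 2.2.1, fastp 0.23.0 and edgeR, beside the build mm39; their roles were not given in the sources used here. FPKM values were deposited by the authors with a library-size-adjusted signal per library, and the authors' log2 fold change, p-value and adjusted p-value per gene, per the file headers. Of 136 list genes matched to GENCODE M21, 133 had its GRCm38 start and end, so positions are given on GRCm38 although mm39 is named.

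Whole reads were recovered from the FPKM values, since the 6 values of a gene are whole multiples of a common step after 1 factor per library (100.0% of values above 0, tolerance 1e-05 reads, widened in proportion above 1000 reads). For 654 genes a multiple of the smallest set was taken, the one nearest the adjusted signal. Even the closest libraries (sulfasalazine 1 and 2) differed beyond sampling noise, at a chi-square per degree of freedom of 6.55, so all 6 were kept.

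Genes reaching 1 FPKM in 3 or more libraries were tested with limma 3.58.1 in R 4.3.3 (lmFit, eBayes with intensity trend, two-sided) on log2(FPKM + 1), with Benjamini-Hochberg adjustment over all tested genes and a threshold of 0.05. The fit was tested on simulated data. Sums were compared with an exact permutation test (scipy 1.17.1). The genes and lists were chosen with earlier results of these data known. Named were all genes of the set, up to 4 called genes of largest change per list (for a list with no call the most abundant gene) and the 3 genes of at least 5 mean FPKM most like Sox9; other genes were named after their values were seen. Exonic overlap came from GENCODE M21, and promoters from RefSeq on GRCm38.p6, where 6 of the 10 genes had an entry. Whether strand was used in counting is unknown here. Alternatives were other pseudocounts, filters, scalings and thresholds, no trend, a replicate block, limma voom on recovered reads and leaving libraries out.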

Additional observations from a re-analysis of the deposited data

How the results depend on the processing

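Sox9, Lrp5, Apcdd1 and Ctnnb1 kept their direction and call under all 17 alternatives, and Tcf7l2 under all but a minimum absolute log2 fold change of 1, where its 0.96 falls short. Ctnnb1 met that minimum only narrowly, at 1.00, and its value was 0.89 under median-of-ratios scaling. With each library left out in turn, Sox9 ranged from -2.29 to -2.0 and Lrp5 from 1.97 to 2.44. Lgr4 lost its call under quantile normalization (0.44), without replicate 3 of both groups (0.35), at a minimum change of 1 and at an adjusted p under 0.01 (0.74 in both), and ranged from 0.51 to 0.87 with a library left out. It could not be fitted under the filter of 5 FPKM, nor could Wnt9a. Uncalled values changed sign for Wnt9a (-0.07 under median-of-ratios scaling, -0.27 under quantile normalization, -0.24 to 0.15 with a library left out), Rnf43 (-0.01, -0.16, and -0.11 to 0.28), Lrp6 (-0.07 without replicate 3 of both groups) and Col11a2 (-0.35 to 0.11 with a library left out). The cause of these changes was not tested. At a minimum change of 1 the counts were 1990 higher and 1440 lower over all genes, and 23 and 9 over the Wnt lists, since that rule removes smaller changes. Median-of-ratios scaling and quantile normalization moved the median of all genes by -0.10 and -0.11, and the Wnt lists then had 35 and 33 higher and 23 and 21 lower.

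Replicate numbers are shared between groups, but deviations of same-numbered libraries from their group means correlated at 0.04, -0.19 and -0.17. These values gave no sign of pairing, but they cannot exclude it, since deviations from a mean of 3 libraries depend on each other. With a replicate block the counts were 3649 higher and 2771 lower, and Sox9 stayed at -2.17 and Lgr4 at 0.74 (limma adjusted p = 0.0492). The block kept the call of every gene of the set of 9, while the calls of Wnt7b and Porcn were lost (0.0595 and 0.0639). With 3 libraries a group, small changes of uneven genes such as Lrp6 were not detectable.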
